A study of Mus musculus with 9 samples.

Results

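The Kruppel-like factors (KLFs) other than Klf2 were described here in H3K27ac ChIP-seq data from naive CD8+ T cells. They are 8 genes, Klf3, Klf4, Klf6, Klf7, Klf10, Klf11, Klf12 and Klf13, of 22380 protein-coding gene records in the mm9 annotation. They were chosen by name, and each was given the H3K27ac islands that overlapped its window, which ran from the gene's 3′ end to 50 kb upstream of its 5′ end. All 8 had islands of both genotypes in the window, as did 16487 of the 22380 genes. A WT island lay in the window of 75.0% of all genes and a dKO island in that of 75.1%.

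H3K27ac, an acetylation of histone H3 found at active promoters and enhancers, was profiled in splenic CD8+ T cells with 4 WT samples and 3 dKO samples, beside 1 input sample of each genotype. Mice of both groups were on the C57BL/6 background, aged 6 to 12 weeks and of both sexes, and carried the hCD2-Cre transgene and a Rosa26 GFP reporter. WT mice had intact Tcf7 and Lef1 alleles, and dKO mice had both genes floxed, so that their cells lacked the transcription factors Tcf1 and Lef1. This Cre acts mainly in mature T cells and does not recombine in every cell, so both groups were sorted as GFP+ TCRbeta+ CD62Lhi CD44lo-med cells. The deposited values are 2 lists of enriched islands, 1 per genotype, called on pooled replicates with a read count per island. Values per mouse were not analysed here, so differences come with neither a replicate check nor a p-value, and the 95% exact intervals given cover counting error alone.

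There were 65563 islands with 82668007 counts in the WT list, and the dKO list held 82213 islands with 57665047 counts, a mean of 210.5 and 134.3 counts per kb of island. Counts were therefore scaled by each list's total and given as CPM (an island's share of all island counts, times 1000000), and also divided by the kb that islands covered. A log2 ratio below is dKO over WT, and a gene or region was called higher or lower in dKO where its ratio passed 1.5-fold. Of the T cell markers, 5 of the 6 listed were found by name, and all 5 had a promoter island in each list (82.2 to 362.3 CPM in WT and 134.9 to 219.9 CPM in dKO). Their log2 count ratios at the promoter ran from -1.43 for Cd8a and -1.21 for Cd8b1, which share the same WT island, to 1.39 for Cd3e. By the same measure the 7 KLF genes with promoter islands ran from -1.04 to -0.01. In dKO the islands of Cd8a and Cd8b1 were not the same (7778 and 9033 counts, against 29951 in WT). Those 2 ratios therefore rest in part on island borders. Islands also lay at the promoters of 3 of 3 B cell markers (5.21 to 149.2 CPM in WT and 5.71 to 128.6 CPM in dKO), 3 of 3 myeloid markers (7.02 to 12.8 CPM and 3.09 to 7.86 CPM) and 1 of 2 NK markers, with Ncr1 at 0 in both lists. How far other cells in the sort contributed to the values below was not tested. Less acetylation per cell and fewer acetylated cells cannot be told apart in such pooled chromatin.

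KLFs are zinc finger transcription factors that bind GC-rich boxes and CACCC boxes in DNA. Their zinc fingers are alike, and they differ in the parts of the protein that recruit other proteins. Klf4, Klf6 and Klf7 belong to the branch with activating domains, Klf3 and Klf12 recruit the corepressor CtBP, and Klf10, Klf11 and Klf13 bind the corepressor Sin3A. In T cells the family is best known for Klf2 and Klf4, which hold naive cells in quiescence, and for Klf2 as the activator of the homing receptor genes of naive cells.

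Promoter letters are shown for 4 members that differ in their H3K27ac, as the 250 bases before the RefSeq start. They are Klf4 and Klf11, with the lowest and the highest dKO to WT ratio of promoter islands per kb, Klf12, which had no promoter island, and Klf13, which lay under the strongest WT island. Klf12 and Klf13 were chosen after their values were seen. The letters come from the RefSeq table of the GRCm38.p6 build, and each matched the mm9 genome at 1 place. Capitals mark GGGCGG (the GC box of KLF and SP factors) and CACCC on either strand, which may overlap each other.
Klf4, mm9 chr4:55545348-55545597, minus strand: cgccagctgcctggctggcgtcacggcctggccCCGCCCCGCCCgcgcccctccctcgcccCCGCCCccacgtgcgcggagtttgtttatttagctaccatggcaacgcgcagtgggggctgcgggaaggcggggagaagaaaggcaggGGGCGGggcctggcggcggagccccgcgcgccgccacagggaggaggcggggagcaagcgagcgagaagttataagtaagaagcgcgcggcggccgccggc
Klf11, mm9 chr12:25335986-25336235, plus strand: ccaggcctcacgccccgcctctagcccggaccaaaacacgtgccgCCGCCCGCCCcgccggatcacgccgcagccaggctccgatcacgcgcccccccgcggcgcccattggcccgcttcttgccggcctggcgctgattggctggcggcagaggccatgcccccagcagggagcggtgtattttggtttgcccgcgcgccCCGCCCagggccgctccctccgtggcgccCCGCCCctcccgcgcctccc
Klf12, mm9 chr14:100549016-100549265, minus strand: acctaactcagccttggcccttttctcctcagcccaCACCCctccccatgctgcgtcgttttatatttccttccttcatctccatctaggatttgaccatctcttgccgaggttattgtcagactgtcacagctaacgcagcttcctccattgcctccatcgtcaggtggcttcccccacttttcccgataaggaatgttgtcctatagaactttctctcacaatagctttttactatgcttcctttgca
Klf13, mm9 chr7:71083802-71084051, minus strand: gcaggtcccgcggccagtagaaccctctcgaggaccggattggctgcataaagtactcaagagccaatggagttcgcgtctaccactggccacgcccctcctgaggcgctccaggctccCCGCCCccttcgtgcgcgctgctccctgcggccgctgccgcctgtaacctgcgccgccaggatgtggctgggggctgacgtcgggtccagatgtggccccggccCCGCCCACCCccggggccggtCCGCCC

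The stretches of Klf4, Klf11 and Klf13 lay inside islands of both lists, and that of Klf12 lay outside the islands of both. GC content was 74.0% in Klf4, 76.8% in Klf11, 71.6% in Klf13 and 48.0% in Klf12, against a median of 52.4% over 32851 RefSeq promoters of the same length. Of the 7 members in the table, which has no entry for Klf10, 6 held GGGCGG and 4 held CACCC. These letters stood in 32.7% and 52.0% of all promoters. Klf12 was the member without GGGCGG. None of the 7 held CTTTGAA or CTTTGAT, the Tcf/Lef letters searched on both strands, which stood in 4.46% and 3.21% of all promoters. A match of letters is a description and not a bound site.

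Across the windows, the 8 genes had 39 islands in WT and 53 in dKO. Klf3, Klf6, Klf7, Klf10 and Klf11 had more islands in dKO, Klf12 had as many, and Klf4 and Klf13 had fewer. By counts, 0 of the 8 were higher in dKO (11.5% of all genes with islands in both lists were) and 1 of the 8, Klf4, was lower (11.5% of all genes). By counts per covered kb, 0 of the 8 were higher (0.425% of all genes) and 0 were lower (9.28% of all genes). The median log2 count ratio was -0.13 over the members and -0.03 over the 16487 genes, whose SD was 0.63. The median log2 ratio per covered kb was -0.11 over the members and -0.16 over those genes. The covered width of the windows had a median log2 ratio of -0.12 over the members, with 5 of 8 below 0. Over all genes the median was 0.17, and 33.3% were below 0. No test of that difference was possible. It rests in part on window borders, as the log2 width ratio of Klf13 was -0.30 in its window. Over the whole stretch that joins its overlapping WT and dKO islands, the Klf13 ratio was -0.02.

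**Figure D1:**
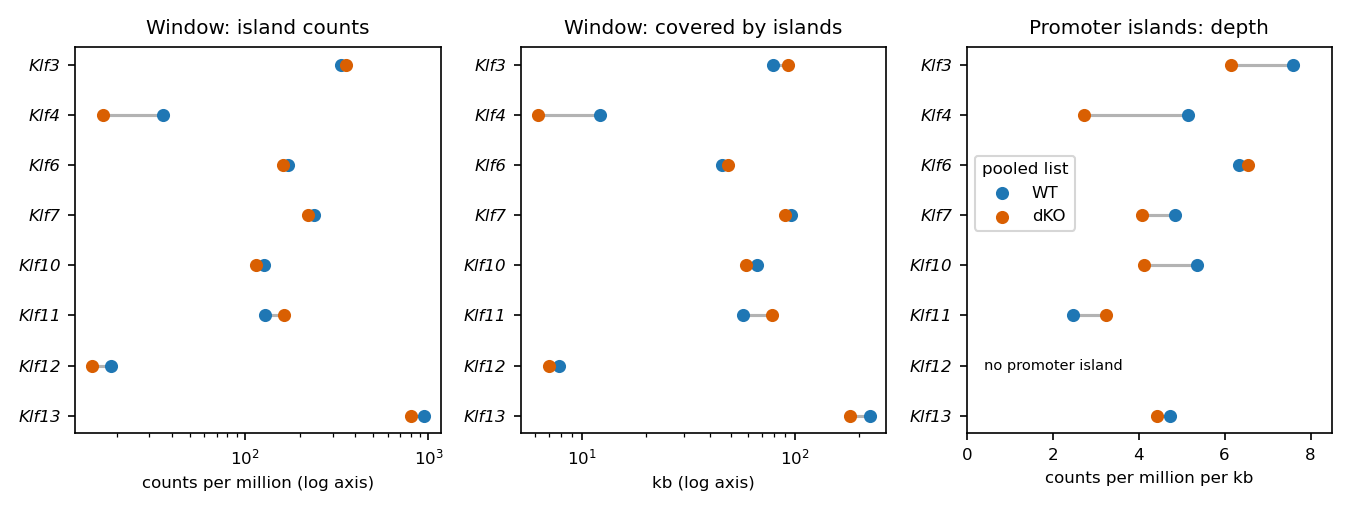
Island counts in the window (CPM, log axis), kb of the window's islands (log axis) and depth of the promoter islands (CPM per kb) for each of the 8 KLF genes, with blue points for the pooled WT list, orange points for the pooled dKO list and a grey line joining them. Klf4 has the widest gap in all 3 panels, while Klf13 lies highest in counts and width without standing out in depth.

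In the plot of levels by gene, counts and widths spread over more than 1 order of magnitude, since a wide island gathers more counts. Levels are therefore ordered between genes by the depth of the promoter islands, the islands within 1 kb of an annotated transcription start site (TSS). Both lists had a promoter island at 7 of the 8 genes, and at 62.9% and 63.3% of all protein-coding genes in WT and dKO. In WT, Klf3 had the deepest promoter island at 7.59 CPM per kb, then Klf6 at 6.34, Klf10 at 5.36, Klf4 at 5.14, Klf7 at 4.84, Klf13 at 4.72 and Klf11 at 2.48. Counting intervals overlapped between Klf10 and Klf4, between Klf4 and Klf7, and between Klf7 and Klf13. Neighbours among those 4 could therefore not be ranked against each other. In dKO, the order by CPM per kb was Klf6 at 6.55, Klf3 at 6.15, Klf13 at 4.43, Klf10 at 4.12, Klf7 at 4.07, Klf11 at 3.24 and Klf4 at 2.72, with overlapping intervals for Klf10 and Klf7. Klf4 thus stood in the middle of the order in WT and last in dKO. The median over genes with promoter islands in both lists was 3.63 CPM per kb in WT and 3.06 CPM per kb in dKO.

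Klf4, which restrains proliferation of CD8+ T cells and is also a reprogramming factor, was the member with the lowest dKO to WT ratio. The gene (chr4:55540013-55545347, minus strand) had 3 WT islands in its window with 2946 counts over 12.2 kb, or 35.6 CPM. It had 1 dKO island with 973 counts over 6.2 kb, or 16.9 CPM. The log2 count ratio was -1.08 (-1.18 to -0.97), at percentile 3.28 of the 16487 genes. This value and its interval take the WT islands without a dKO island as 0 in dKO, although the dKO list gives no count there. Where both lists had islands, the ratio was -0.66 (-0.77 to -0.55). The promoter islands of the 3 myeloid markers also had ratios below 0, with log2 count ratios of -1.18 for Csf1r, -0.70 for Cd14 and -0.26 for Lyz2, and their part in the Klf4 difference was not tested.

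The Klf4 promoter island carried most of this signal in both genotypes. In WT it spanned chr4:55542401-55547600 with 2210 counts, 425.0 counts per kb or 5.14 CPM per kb. In dKO it spanned chr4:55542401-55548600, 1 kb wider, with 973 counts, 156.9 counts per kb or 2.72 CPM per kb. A wider island with fewer counts gave log2 ratios of -0.66 (-0.77 to -0.55) by counts and -0.92 (-1.03 to -0.81) per kb. By the same measure per kb, 1 of 7 member promoters, that of Klf4, was lower in dKO (17.4% of 13558 genes) and 0 of 7 were higher (2.12%). Klf4 stood at percentile 5.75 of those genes. The Klf4 promoter therefore differed both in counts and in depth, whereas the other differences called by counts among the members did not pass 1.5 per kb.

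The other 2 WT islands of Klf4 lay upstream of the gene, over no annotated exon. The window also holds the start of the processed transcript Gm12511, and whether these islands lie in its introns was not tested. They were chr4:55555401-55558400 with 331 counts over 3 kb and chr4:55576801-55580800 with 405 counts over 4 kb. Neither had a dKO island, so the dKO list gives no count there rather than a count of 0. At 110.3 and 101.2 counts per kb they were shallow for WT, where islands averaged 210.5 counts per kb. Because these WT islands widened the covered stretch at low depth, the whole window of Klf4 had a log2 ratio per covered kb of -0.10 (-0.21 to 0.003), close to that of other members. Regions with WT islands alone made up 12.8% of all merged regions, and 4 of the 36 merged regions of the members, while dKO islands alone made up 28.1% of all and 5 of those 36.

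Tcf/Lef letters were searched in these 3 Klf4 regions, where the promoter stretch printed above held none. CTTTGAA or CTTTGAT stood at 4 places in 13.2 kb, or 0.30 per kb, against 0.40 per kb in all regions with islands of both lists and 0.45 per kb in all regions of WT alone. They are shown with the bases around them, the searched letters in capitals, because 3 of the 4 lie in the regions found in WT alone. Distances are from the gene's 5′ end, upstream negative.
Klf4 at -2.4 kb, mm9 chr4:55547760-55547810, plus strand: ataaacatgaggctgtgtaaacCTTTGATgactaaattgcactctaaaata
Klf4 at -10.1 kb, mm9 chr4:55555383-55555433, plus strand: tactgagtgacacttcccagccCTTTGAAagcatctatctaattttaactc
Klf4 at -11.0 kb, mm9 chr4:55556283-55556333, plus strand: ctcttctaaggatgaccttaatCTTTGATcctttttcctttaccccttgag
Klf4 at -35.4 kb, mm9 chr4:55580677-55580727, minus strand: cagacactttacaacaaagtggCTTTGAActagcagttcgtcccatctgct

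The place at -2.4 kb lies in the stretch that belonged to the dKO island and not to the WT island. Across members, the density of these letters ran from 0.29 per kb in the regions of Klf10 to 0.88 per kb in those of Klf12, which rests on 9 places in 10.2 kb. Klf4 was therefore at the low end of its own family by this count. Whether any of these places is bound was not tested.

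**Figure D2:**
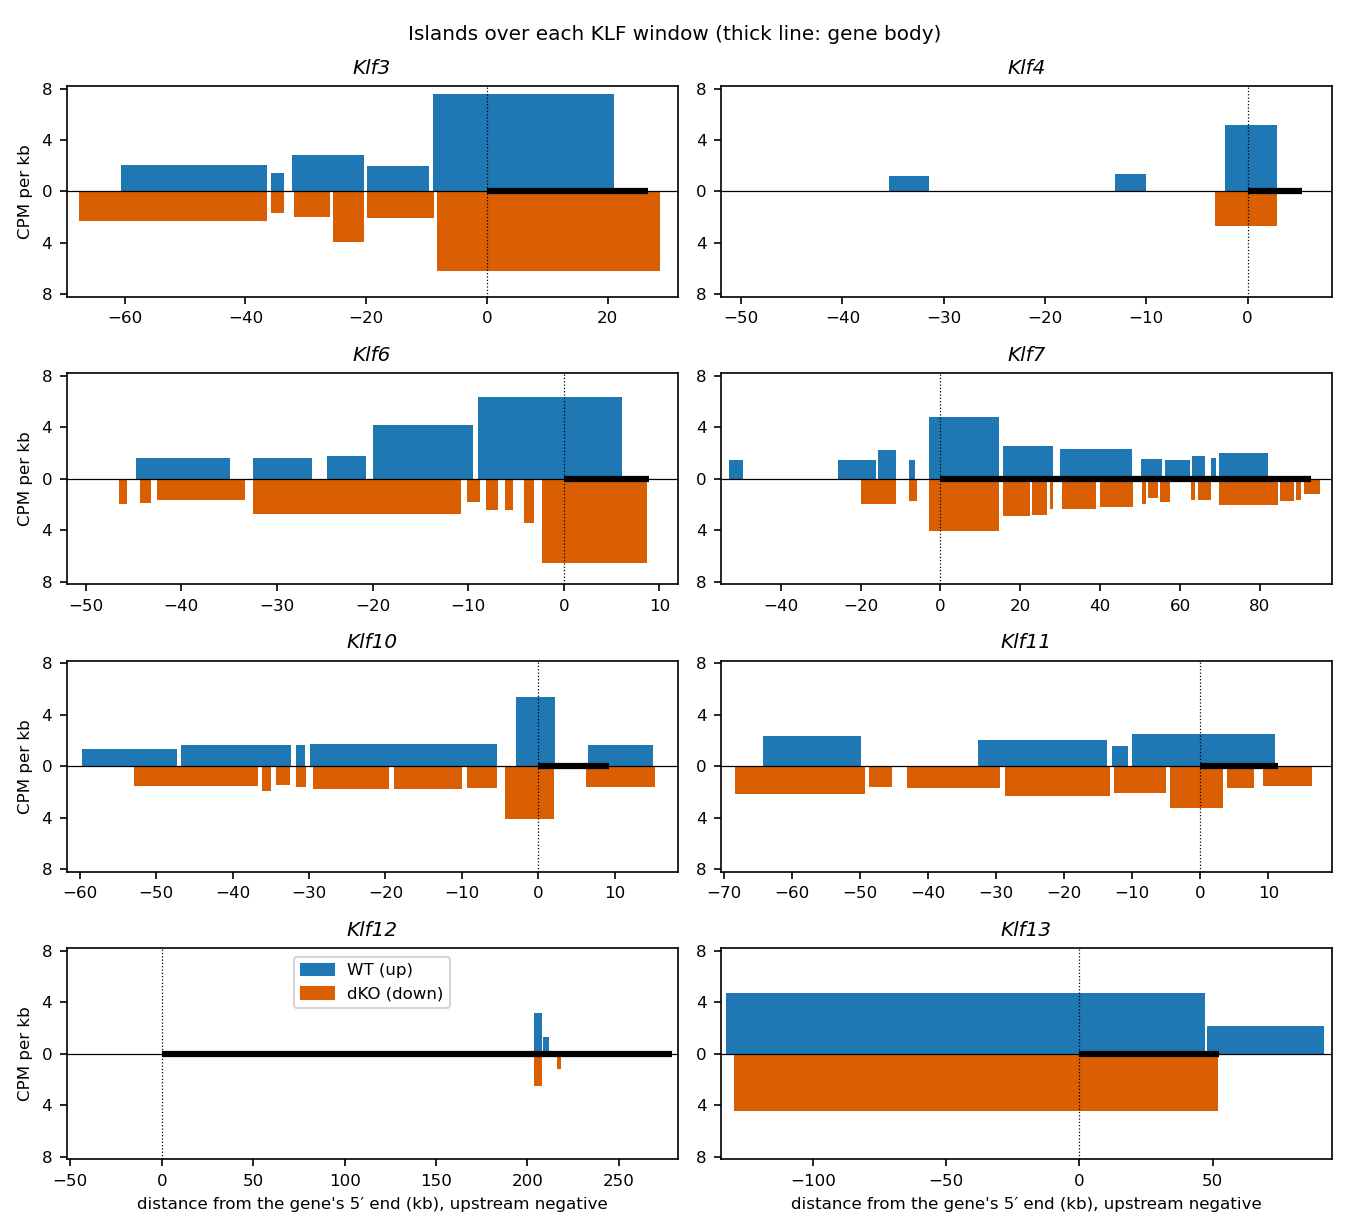
Islands over each KLF window, with distance from the gene's 5′ end in kb (upstream negative, the direction of transcription to the right) on the x axis and island depth in CPM per kb on the y axis, WT in blue above the line and dKO in orange below it. Bars are whole islands, so some run past the window, and the thick black line is the gene body. Klf4 keeps 1 of its islands in dKO, Klf12 has none near its 5′ end, and the island of Klf13 spans 179.8 kb in WT.

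Klf6, a broadly expressed early response factor, had 5 WT islands with 14193 counts over 45.4 kb (171.7 CPM) and 9 dKO islands with 9265 counts over 48.4 kb (160.7 CPM). The log2 count ratio of the window (gene chr13:5860735-5869639, plus strand) was -0.10 (-0.13 to -0.06). Within the window the promoter and the upstream part went in different directions. The promoter island held 7865 counts across 15 kb in WT, against 4153 counts across 11 kb in dKO, a log2 count ratio of -0.40 (-0.46 to -0.35) but a ratio per kb of 0.05 (-0.01 to 0.10). Its upstream border was at -8.93 kb in WT and at -2.33 kb in dKO, where 4 dKO islands of 0.8 to 1.4 kb lay just beyond it. Upstream islands together had a log2 count ratio of 0.21 (0.16 to 0.27). The Klf6 promoter islands as called were thus about as deep in both lists, but they did not cover the same stretch. They ran from -8.93 to 6.1 kb in WT and from -2.33 to 8.7 kb in dKO. Their ratio per kb therefore cannot show equal depth over the same sequence. The count ratios of the promoter and of the upstream islands rest on this border as well. Over the merged region that joins these islands, chr13:5828201-5869400, both log2 ratios were negative, at -0.14 by counts and -0.20 (-0.24 to -0.16) per kb.

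Klf7, known for its part in neurons and a relative of Klf6, spans 92.8 kb (chr1:64076021-64168856, minus strand) and had islands along most of it. The window held 12 WT islands with 19747 counts over 95.2 kb (238.9 CPM) and 17 dKO islands with 12719 counts over 89.6 kb (220.6 CPM), a log2 count ratio of -0.12 (-0.15 to -0.08). The promoter island had the same borders in both lists, chr1:64154201-64171800, with 7046 counts in WT and 4127 in dKO. With no change in width, its log2 ratio was -0.25 (-0.31 to -0.20) by either measure, within the 1.5 limit and near the median of -0.20 per kb over all promoters.

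Of the 36 merged regions in the 8 windows, 13 were in that of Klf7, and 10 of those held islands of both lists. Over the members, 27 regions held islands of both lists, of which 1 was higher by counts in dKO (11.1% of all such regions) and 3 were lower (14.6%). The higher one, chr1:64073801-64077800 at the 3′ end of Klf7, had 245 counts across 1.8 kb in WT, against 267 counts across 4 kb in dKO, a log2 count ratio of 0.64 but -0.51 (-0.76 to -0.25) per kb. It also overlaps an exon of the lincRNA Gm17427. The lower ones were the Klf4 promoter and 2 regions of Klf7. In a Klf7 intron, chr1:64106401-64118600 had 1394 counts across 11.4 kb in WT, against 569 counts across 5.8 kb in dKO, a log2 count ratio of -0.77 and a ratio per kb of 0.20 (0.06 to 0.34). Upstream, chr1:64218401-64221800 had 412 and 137 counts, with log2 ratios of -1.07 by counts and 0.02 (-0.27 to 0.30) per kb. Per kb, 0 of the 27 regions were higher (1.17% of all such regions) and 1 was lower (4.51%), the Klf4 promoter. The Klf7 regions called by counts thus narrowed or widened without reaching the limit in depth.

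Klf3, a repressor that acts through CtBP and often competes with activating KLFs at the same sites, had the deepest WT promoter island of the members. Its window (gene chr5:65194628-65221368, plus strand) had 5 WT islands with 27587 counts over 78.4 kb (333.7 CPM) and 6 dKO islands with 20461 counts over 92.2 kb (354.8 CPM). The log2 ratio was 0.09 (0.06 to 0.11) by counts and -0.15 (-0.17 to -0.12) per kb. The promoter island held 18811 counts across 30 kb in WT (627.0 counts per kb), against 13055 counts across 36.8 kb in dKO (354.8 counts per kb). By counts the promoter ratio was -0.01 (-0.04 to 0.02), and per kb it was -0.30 (-0.33 to -0.27), since the same scaled counts lay over a longer stretch in dKO. Upstream islands, in contrast, had a count ratio of 0.27 (0.23 to 0.32) and a ratio per kb of 0.08 (0.04 to 0.12). None of these ratios reached 1.5.

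Klf12, the other CtBP-binding member and first described as a repressor of the AP-2alpha gene, was the member with the least H3K27ac. It spans 279.1 kb (chr14:100269869-100549015, minus strand) with 1 annotated start and no island of either list at its promoter or upstream of it. The 2 WT islands held 1542 counts over 7.8 kb (18.7 CPM) and the 2 dKO islands held 845 counts over 7 kb (14.7 CPM), with a log2 count ratio of -0.35 (-0.47 to -0.23). All lay more than 200 kb into the gene. The island chr14:100341001-100345600 overlaps 1 annotated Klf12 exon and had the same borders in both lists, with 1194 WT counts and 676 dKO counts, a log2 ratio of -0.30 (-0.44 to -0.16). Beside it lay chr14:100337201-100340400 in WT alone (348 counts) and chr14:100330601-100333000 in dKO alone (169 counts), both intronic. Klf12 thus carried a small acetylated stretch deep in the gene in both genotypes, with weak neighbours that differed in place.

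Klf10, an early gene of the TGF-beta response, had 6 WT islands with 10493 counts over 66.4 kb (126.9 CPM) and 9 dKO islands with 6601 counts over 59 kb (114.5 CPM). The log2 ratio (gene chr15:38221219-38230464, minus strand) was -0.15 (-0.19 to -0.10) by counts and 0.02 (-0.02 to 0.07) per kb. The count ratio rests in part on the upstream border, where a WT island of 12.4 kb with 1411 counts reached past the window. With islands taken in proportion at the border, it was -0.06 (-0.11 to -0.01). The promoter island held 2303 counts across 5.2 kb in WT, against 1521 counts across 6.4 kb in dKO, with log2 ratios of -0.08 (-0.17 to 0.02) by counts and -0.38 (-0.47 to -0.28) per kb. As at Klf3 and Klf4, the dKO promoter island was wider and shallower. Outside the promoter, the 5 WT and 8 dKO islands had a ratio per kb of 0.05 (-0.002 to 0.10). Upstream islands alone had a ratio per kb of 0.06 (0.001 to 0.11).

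Klf11, a close relative of Klf10 that is also induced by TGF-beta, had the highest count ratio of the members, 0.34 (0.30 to 0.38), which did not reach 1.5. This direction rests on the upstream islands, since the ratio was -0.28 with the gene body alone and -0.14 with islands given to the nearest TSS, where Klf6 had the highest ratio (0.11). Its window (gene chr12:25336236-25347639, plus strand) had 4 WT islands with 10679 counts over 56.8 kb (129.2 CPM) and 8 dKO islands with 9423 counts over 78.2 kb (163.4 CPM). Per kb the log2 ratio was -0.12 (-0.16 to -0.08). The upstream islands lie over the neighbouring gene Grhl1 and the pseudogene Gm6969 as well, and had a count ratio of 0.64 (0.59 to 0.69) with a ratio per kb of -0.08 (-0.13 to -0.03). They cannot be assigned to Klf11 from these data.

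The promoter of Klf11 shows how much a count can rest on island borders. In WT, 1 island of 21 kb with 4305 counts covered the promoter and nearly all of the gene. In dKO the promoter island was 7.8 kb wide with 1456 counts, and 2 further islands of 4 and 7.2 kb followed downstream after short gaps. The promoter count ratio was therefore -1.04 (-1.13 to -0.96), so that 2 of 7 member promoters, Klf4 and Klf11, passed 1.5 by counts, both of them lower in dKO (33.1% of 13558 genes passed it either way). Per kb the Klf11 promoter had the highest ratio of the members, 0.38 (0.30 to 0.47), within the limit. Over the merged region chr12:25323201-25353600, with 5360 WT and 3386 dKO counts, the log2 ratio was -0.14 by counts and -0.01 (-0.07 to 0.05) per kb. The region also overlaps an exon of Cys1.

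**Figure D3:**
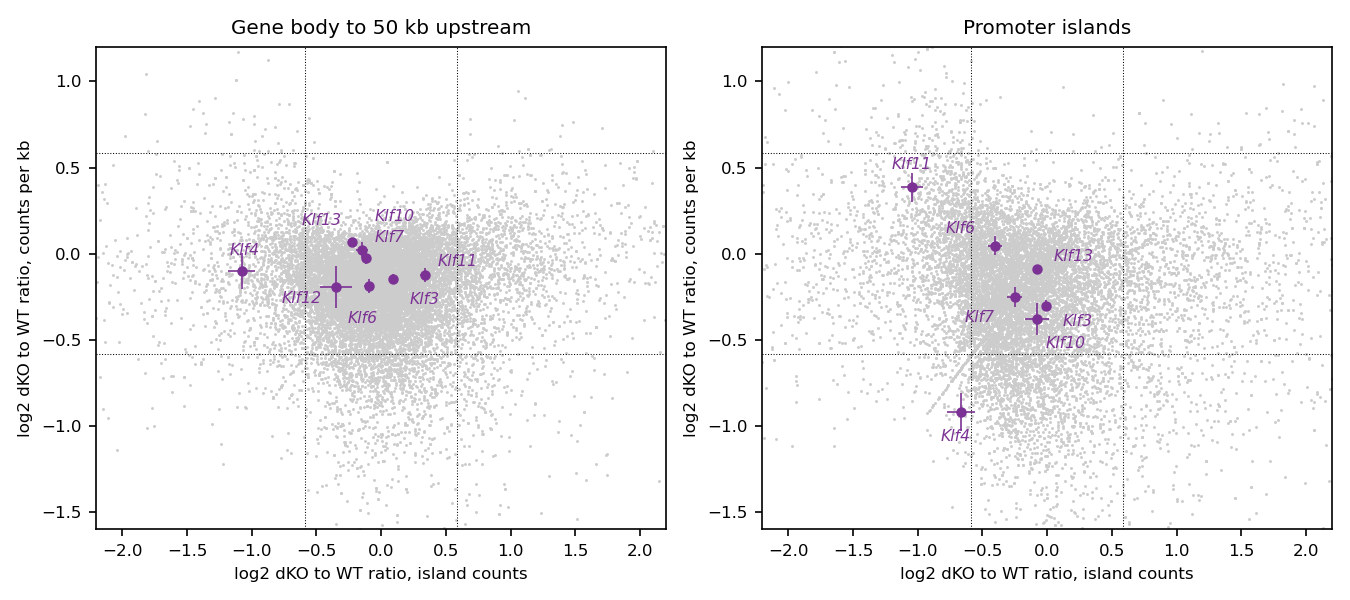
Log2 dKO to WT ratio of island counts (x axis) against that of counts per covered kb (y axis), for windows on the left and promoter islands on the right, with purple points for the KLF genes, bars for 95% counting intervals, grey points for all genes and dotted lines at a ratio of 1.5 either way. Some grey points lie outside the axes. At promoters Klf4 is past the lower limit on both axes, and Klf11 is past it by counts (-1.04) but above 0 per kb (0.38).

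Klf13, which activates the chemokine gene Ccl5 late after T cell activation, lay under the strongest H3K27ac island of the WT list. The island chr7:71036601-71216400 was 179.8 kb wide with 70215 counts, rank 1 by counts and rank 1 by width among 65563 islands, and held 0.0849% of all WT island counts. The matching dKO island, chr7:71031801-71213600, was 181.8 kb wide with 46455 counts, rank 3 by counts and rank 5 by width among 82213, and held 0.0806% of counts. Its depth was 4.72 CPM per kb in WT and 4.43 CPM per kb in dKO. That was percentile 68.3 and 79.2 of the 13558 genes with promoter islands in both lists, so it stood out more by its width. The log2 ratio between the islands was -0.08 (-0.09 to -0.06) by counts and -0.09 (-0.11 to -0.08) per kb.

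The island of Klf13 (gene chr7:71031237-71083801, minus strand) ran far beyond the gene upstream, to -132.6 kb from its 5′ end. The window held 2 WT islands with 78048 counts over 223.6 kb (944.1 CPM) and 1 dKO island with 46455 counts over 181.8 kb (805.6 CPM), a log2 count ratio of -0.23 (-0.25 to -0.21). This value rests on the border at the 3′ end of the gene, where 1 WT island of 43.8 kb with 7833 counts reached into the window and its dKO counterparts ended just outside. Over the whole merged region chr7:70992001-71216400, dKO had 51548 counts over 220.2 kb, with log2 ratios of -0.08 (counts) and -0.06 (per kb).

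**Figure D4:**
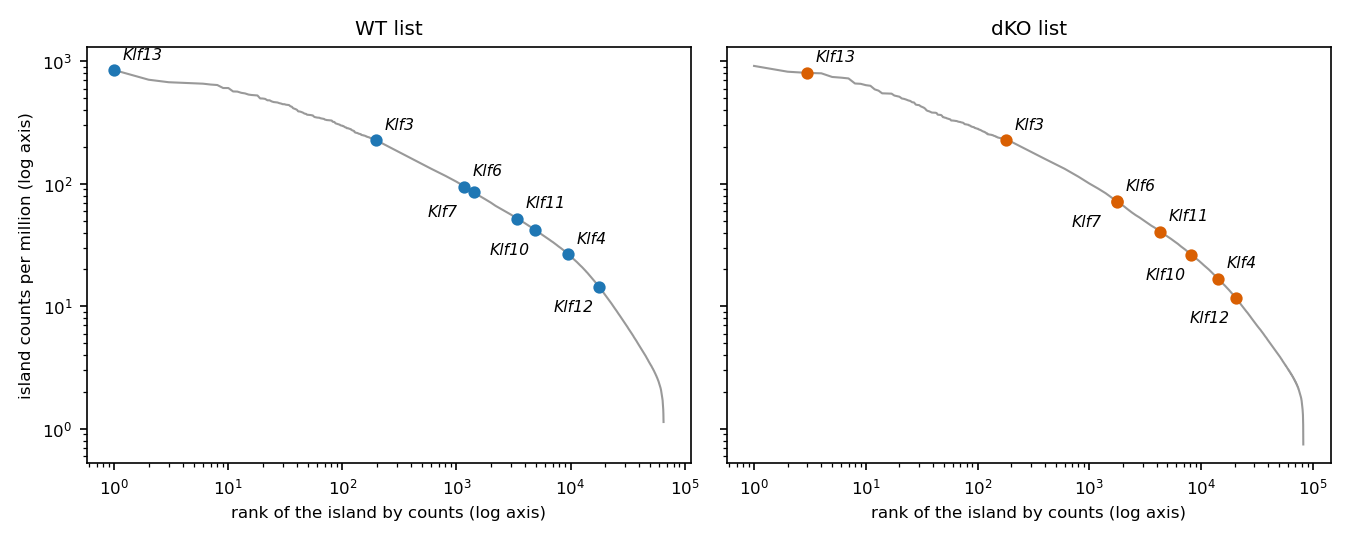
Islands of each list ranked by counts (log x axis) against their CPM (log y axis), grey line for all islands and coloured points for the island with the most counts in each KLF window, WT on the left and dKO on the right. Klf13 is at rank 1 in WT and 3 in dKO, Klf3 at 196 and 181, and Klf12 at 17775 and 20423.

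In the plot of island ranks, the order of the members was the same in both lists, from Klf13 and Klf3 down to Klf4 and Klf12. The promoter island of Klf3 was at rank 196 in WT and 181 in dKO, while that of Klf4 was at rank 9506 in WT and 14187 in dKO. In Klf10 the island with the most counts was an upstream island in WT and the promoter island in dKO. That WT island of 24.6 kb was matched by 3 dKO islands, with a log2 count ratio of -0.04 over the merged region. In Klf11 it was the promoter island in WT and the island farthest upstream in dKO. That upstream stretch lay mostly outside the window and also held WT islands, with a log2 count ratio of 0.03 over the merged region. Both switches thus rest in part on island borders.

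To ask which members lay in super enhancers (SEs), islands were stitched at the default distance of the ROSE procedure and ranked by counts, which gave 1138 SEs in WT and 973 in dKO. The promoters of 5 of the 8 genes, Klf3, Klf6, Klf7, Klf10 and Klf13, were in an SE in WT and also in dKO, against 20.6% of all genes in WT and 26.4% in dKO. Klf4, Klf11 and Klf12 were in none at this distance, and the number moved to between 4 and 6 at other stitching distances. The SE of Klf3 was rank 8 in WT (chr5:64454601-65215600, 761 kb, 143167 counts) and rank 1 in dKO (chr5:64269001-65998400, 1729.4 kb, 195927 counts). The SE of Klf13 was rank 10 in WT (596 kb) and rank 47 in dKO (515 kb). Those of Klf7 and Klf10 ranked 594 and 531 in WT and 751 and 586 in dKO, and that of Klf6 ranked 1037 and 876. The Klf3 SE was thus wider in dKO, while the depth at the Klf3 promoter was lower in dKO (6.15 against 7.59 CPM per kb). Most of this SE lay outside the 76.7 kb window of Klf3 in both lists. Its width and counts cannot be assigned to Klf3 from these data.

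The study's own position lists were searched for the 8 windows. The Klf3 window lies in 1 of the 88 listed dKO-prepotent SEs, which spans 1.73 Mb and so reaches far beyond the window. The Klf13 window overlaps 1 of the 35 listed dKO-specific hubs, chr7:71110000-71310000, upstream of the gene. The study built such hubs from chromatin contacts that were increased in dKO. The SE list was chosen on the same libraries and is no independent evidence. The lists hold only positions that the study linked to genes with changed expression, so nothing is read from the windows that they do not overlap.

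Klf2, the family member left out of the list, had the same measures taken for comparison. Its window held 45555 counts across 112 kb in WT, against 43400 counts across 132.8 kb in dKO, with log2 ratios of 0.45 (0.43 to 0.47) by counts and 0.20 (0.19 to 0.22) per kb. Upstream of the gene the ratios were 1.09 by counts and 0.55 (0.52 to 0.59) per kb. All 8 members had lower window ratios than Klf2 by both measures, the nearest being Klf11 by counts (0.34) and Klf13 per kb (0.07), with intervals that did not overlap that of Klf2. With 1 pooled value per genotype, whether this exceeds the spread between mice could not be tested.

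Of the other 18 genes of the KLF and SP family, Klf2 included, 17 had islands in WT, 16 in dKO and 15 in both. By counts 1 of the 15 was higher in dKO (11.5% of all genes) and 3 were lower (11.5%), and per kb 0 were higher (0.425%) and 1 was lower (9.28%). Klf5, with few counts (287 and 359), was higher by counts (0.84) and lower per kb (-0.60). It had 1 WT island of 1.4 kb, at the promoter, and 2 dKO islands over 3.8 kb, neither at the promoter. The lower ones were Klf8 (-1.80, with 720 and 144 counts), Klf9 (-0.86, with 3653 and 1404 counts) and Klf15 (-1.17, with 389 and 121 counts), none of which passed the limit per kb. Klf14 and Sp5 had islands in WT alone and Sp8 in dKO alone. The median log2 ratio of the 15 was 0.08 by counts and -0.05 per kb, against -0.13 and -0.11 over the 8 members.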

How the data were processed

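H3K27ac ChIP-seq libraries of WT (4) and dKO (3) naive CD8+ T cells and 1 input each were processed by the authors. Per the study's methods and the submitters' processing notes, reads were aligned to mm9 with Bowtie2 2.2.5, uniquely mapped reads (mapping quality above 10) were kept, replicates were pooled, and SICER 1.1 called the islands (FDR below 0.01, window 200 bp, gap 400 bp). Removal of duplicate reads is not given in the sources used here. The deposited values are raw read counts per island, not scaled for depth or width. A region with no island has no count. An island's count grows with its width, so both counts and counts per kb are given.

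Gene positions came from GENCODE M1 (NCBIM37, which is mm9). Whole islands overlapping the window by at least 1 bp were summed with Python 3.11.15, NumPy 2.4.6 and SciPy 1.17.1, and scaled to the list's total. This removes differences in enrichment along with depth. Ratios carry 95% exact binomial intervals and levels 95% exact Poisson intervals. Since no molecular identifiers were used, reads may share a molecule, and these intervals cover counting error only. Overlapping islands of both lists were merged into regions. SEs were called without subtracting the input, unlike in the usual ROSE procedure. The steps were tested on simulated data. The members and gene lists were chosen with earlier results of these data known. All 8 members were named, and other family genes where they passed 1.5 or had islands in 1 list alone. The regions named were those over a TSS, those with extreme ratios or the most counts, and others that the counts turn on. Alternatives changed the scaling, window, border, gene assignment, island filter, ratio and stitching distance. Those on the promoter definition and its scaling were chosen after seeing the data.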

Additional observations from a re-analysis of the deposited data

How the results depend on the processing

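Klf4 was the 1 member called by counts at a ratio of 1.5. Under a window to 10 kb upstream the number was 2 (Klf4, and Klf6 at -0.75), and with islands of at least 3 CPM it was 2 (Klf4, and Klf12 at -0.67). Per kb the number was 0, and 1 (Klf4) with the gene body alone, with 10 kb upstream and with regions of both lists alone. Shares of all genes are given for the main settings alone. The numbers under the alternatives therefore cannot be read against a share of all genes. The log2 count ratio of Klf4 stayed between -1.08 and -0.66 under 9 alternatives. That of its promoter per kb stayed between -0.92 and -0.85 under 4 alternatives, which left 1 promoter called in each. The median log2 count ratio of the members, -0.13, was -0.061 with scaling by regions of both lists and -0.059 with centring on the median region ratio. These scalings add 0.07 to every log2 ratio. It was -0.25 with the gene body alone, -0.29 with 10 kb upstream, -0.19 with 100 kb upstream, -0.077 with islands taken in proportion at the border and -0.21 with islands of at least 3 CPM. Among members within the limit, the sign of the count ratio changed under 3 of 9 alternatives for Klf3 (to -0.49 at 100 kb), 1 for Klf6 (0.11) and 1 for Klf10 (0.04), both with islands given to the nearest TSS, and 2 for Klf11 (-0.28 and -0.14). The cause of these changes was not tested. Promoters in an SE, 5 in each list, numbered 5 in WT and 6 in dKO with stitching at 5 kb, and 4 in each list at 20 kb. No paired analysis was possible because replicates were pooled before islands were called. For the same reason no replicate could be left out. Depth limits the weakest values most, such as the 137 dKO counts of a region upstream of Klf7.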

Other observations

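Partner proteins of the KLFs were examined by the same window, as 10 genes listed by name for their known part in KLF function. Islands of both lists lay at 9 of them. By counts 1 was higher in dKO (11.5% of all genes), Sin3b, which encodes a corepressor scaffold, with 10174 counts across 61 kb in WT, against 12303 counts across 109.6 kb in dKO, a log2 ratio of 0.79. Also by counts, 1 was lower, Wwp1, a ubiquitin ligase, with 4297 counts over 21.4 kb and 1416 counts over 11.2 kb, a log2 ratio of -1.08. Neither passed 1.5 per kb, at -0.05 and -0.15. Per kb 1 of the 9 was lower (9.28% of all genes), Ctbp1, the corepressor that Klf3 and Klf12 recruit, with 4268 counts across 16 kb in WT, against 3936 counts across 35 kb in dKO. Its log2 ratio was 0.40 by counts and -0.73 per kb. Its relative Ctbp2 had islands in dKO alone, 1176 counts over 14.6 kb. The 9 genes had a median log2 ratio of -0.18 by counts and -0.23 per kb.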
